A study of Mus musculus with 6 samples.

Results

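Cyclin D, Cdk4/6 and retinoblastoma genes are described here in 10T1/2 cells, an established mouse line of embryonic fibroblasts. They are 10 genes chosen by name: Ccnd1, Ccnd2, Ccnd3, Cdk4, Cdk6, Rb1, Rbl1, Rbl2, Cdkn1b and Cdkn2c. All 10 were found among the 18194 genes measured. They were read by 30 of the 35067 probe sets that the array annotation assigns to 1 gene, 23 on the Affymetrix MOE430A array and 7 on MOE430B. The study holds 1 group, 3 samples numbered 1, 4 and 5 with no treatment or genetic change given in the labels, each hybridised to 1 array of either design. There is therefore no control group, and each sample is set against the other samples. The cells were grown in DMEM with 10% fetal bovine serum and harvested at 80% confluency. The submitters' notes say that the best 3 samples were taken for the arrays, by a criterion not given in the sources used here, and do not tell separate cultures from repeats of 1 culture. Differences between the samples may therefore be technical.

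D-type cyclins couple growth factor signals to the cell cycle. Each binds and activates the kinases Cdk4 or Cdk6, which phosphorylate the retinoblastoma protein and its relatives p107 and p130, the products of Rb1, Rbl1 and Rbl2. These pocket proteins hold E2F transcription factors in check, and phosphorylation releases genes of DNA replication and of later cell cycle steps. The products of Cdkn2c (p18) and Cdkn1b (p27) restrain the system, the first by binding Cdk4 and Cdk6 and the second mainly by binding Cdk2 complexes. Much of this control acts on the proteins, which the arrays do not measure.

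The value of a probe set is its MAS5 signal, a linear intensity scaled on each array. Genes restricted to tissues such as liver, retina and pituitary gave each array its background limit, at percentile 95 of their signals. It was 1360, 1369 and 964 in samples 1, 4 and 5 on MOE430A, from 127 probe sets, and 2188, 2206 and 1562 on MOE430B, from only 15. The share of probe sets above it ran from 27.1% to 35.0% on MOE430A and from 21.7% to 31.6% on MOE430B, highest in sample 5 on both. Detection required a signal over the limit on 3 of 3 arrays. As a measure of RNA quality, the ratio of the 3' to the 5' Gapdh probe set was highest in sample 1 and lowest in sample 5 on both designs, at 24.7 and 10.6 on MOE430A and 23.4 and 11.5 on MOE430B. The actin ratio was also highest in sample 1 on both, but on MOE430B it was lowest in sample 4 (20.2, 8.23 and 10.8 in samples 1, 4 and 5). Both ratios were far above 1 on every array, and their part in probe sets below the limit was not tested. Of 8 fibroblast markers 7 were detected, with Thy1 below the limit in sample 5. None of 4 leukocyte and 4 endothelial markers was detected, with Ptprc, Cd68 and Pecam1 below the limit on every array. Endothelial Kdr was above it in sample 1 alone, with 1491 on MOE430A. Of 4 epithelial markers Cdh1 and Krt18 were below the limit on every array, and Krt8 just passed it in sample 5 alone, with 967 on MOE430A. Epcam was detected by its MOE430B probe set (31382, 139544 and 29693 in samples 1, 4 and 5) but read at most 47.4 on MOE430A. Fewer cells of a type and less RNA per cell cannot be told apart in these bulk samples.

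Among the members, 7 of 10 genes were detected: the 3 cyclins Ccnd1, Ccnd2 and Ccnd3, the kinases Cdk4 and Cdk6, and the inhibitors Cdkn1b and Cdkn2c. The 3 pocket protein genes were not. Over all genes 31.1% were detected, and the members were also read by more probe sets, 3 per gene against 1.93 over all genes. By probe set, 12 of 23 were detected on MOE430A, where 22.6% of all were, and 3 of 7 on MOE430B, where 20.0% were. With the limit at the 99th percentile 7 and 1 remained, and Ccnd3 and Cdkn1b were no longer detected. When most probe sets of each gene were required instead of 1, Ccnd2 and Cdkn1b dropped out.

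**Figure D1:**
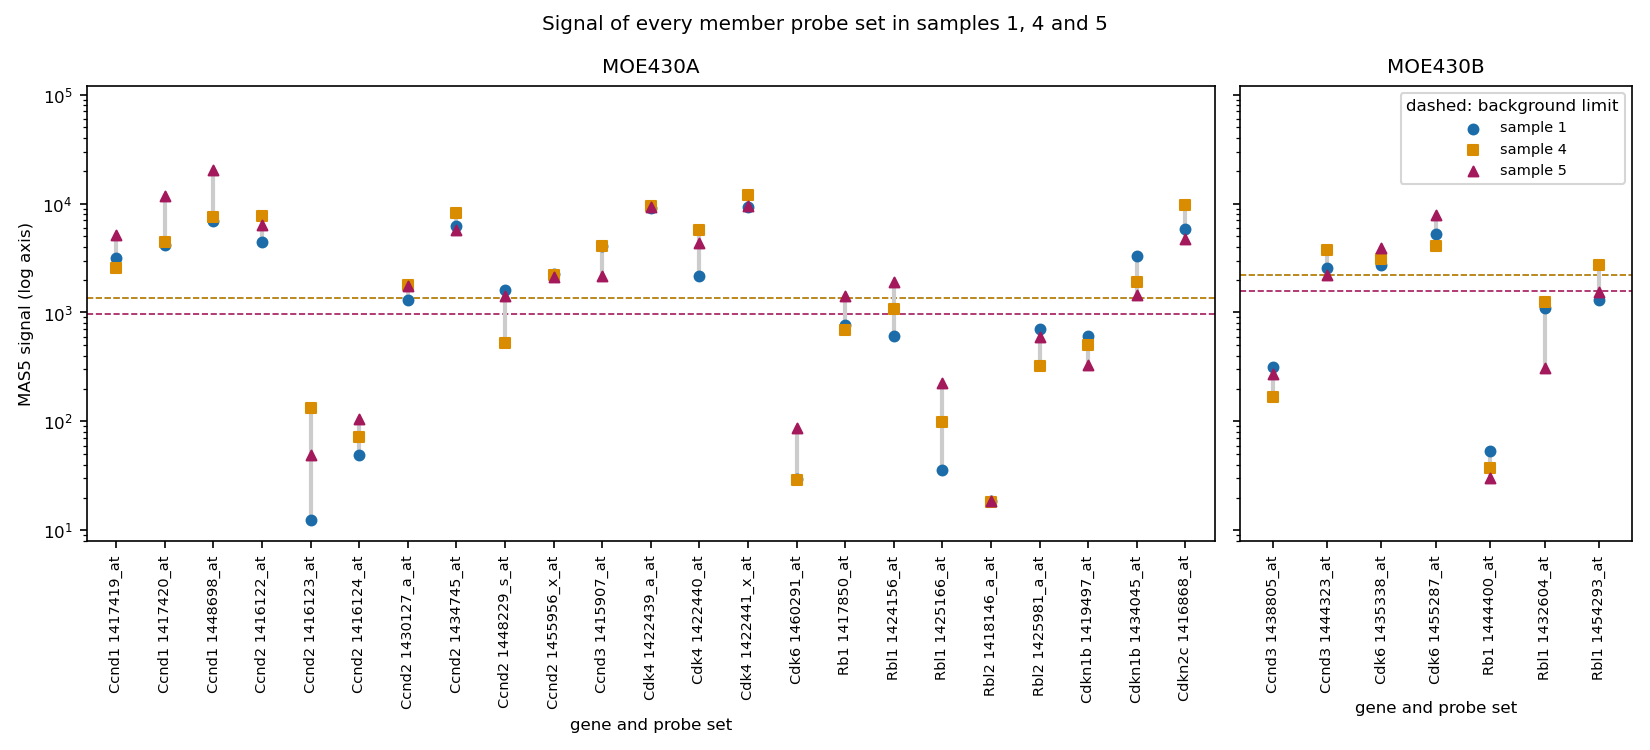
MAS5 signal (log axis) of each of the 30 member probe sets in samples 1 (circles), 4 (squares) and 5 (triangles), with MOE430A on the left and MOE430B on the right. Dashed lines are the background limits of the arrays in the sample's colour. The 3 Ccnd1 probe sets are highest in sample 5, and all 8 probe sets of Rb1, Rbl1 and Rbl2 have at least 1 sample below its limit.

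Ccnd1 encodes cyclin D1, the D cyclin most closely tied to growth factor signals in fibroblasts. Its brightest probe set, 1448698_at, read 20290 in sample 5, against 6874 in sample 1 and 7476 in sample 4 (11547 ± 7578, SD, n = 3). Sample 5 was thus 2.83-fold higher than the mean of the other samples, and samples 1 and 4 lay close together. Probe set 1417420_at read 11762 in sample 5, against 4127 in sample 1 and 4462 in sample 4, 2.74-fold higher in sample 5. The third, 1417419_at, had 5193 in sample 5, against 3160 in sample 1 and 2553 in sample 4, which is 1.83-fold higher. All 3 probe sets of the gene therefore had sample 5 highest. No other member had a probe set 2-fold higher or lower in sample 5 among those with a mean above the limit.

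These differences have 1 sample on one side, so no test was possible and only folds are given. A fold compares 1 sample with the mean of the other samples on the log2 scale, for probe sets whose mean signal lay above the limit, 13 of the members' 23 on MOE430A (29.2% of all probe sets) and 3 of 7 on MOE430B (28.1%). Just inside this filter was Ccnd2 1430127_a_at, with 1301, 1776 and 1739 in samples 1, 4 and 5, and just outside it on MOE430A Rbl1 1424156_at, whose values are given further on. Sample 5 was at least 2-fold higher in 2 of the 13, where 7.69% of all such probe sets on MOE430A were, and at least 2-fold lower in 0, where 6.50% were. The 2 are the same gene. Sample 5 was highest in 3 of the 13, all of Ccnd1, where 36.2% of all were, and lowest in 5, where 38.9% were. Between highest and lowest sample alone, Ccnd1 1417419_at also differed by 2.03-fold, Cdkn1b 1434045_at by 2.27-fold and Cdkn2c 1416868_at by 2.03-fold. No member probe set on MOE430A was 2-fold higher in sample 1 (5.66% of all) or 2-fold higher (2.40%) or lower (2.03%) in sample 4. On MOE430B none of the 3 passed 2-fold, where 3.32% of all were higher and 5.48% lower in sample 1, 2.79% and 2.04% in sample 4, and 5.45% and 4.26% in sample 5.

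On the arrays themselves, 100 probe sets are printed on both designs, and 83 of them lay above the limit. Between the MOE430A and MOE430B arrays of a sample, the deviation of the same probe set differed by a median of 0.41, 0.22 and 0.27 log2 in samples 1, 4 and 5. For 10% of the 83 it differed by more than 0.89, 0.62 and 0.58 log2. The sign was the same on both designs for 56, 60 and 57 of the 83. Their median deviation also shifted between MOE430A and MOE430B, with -0.081 and -0.44 log2 in sample 1 and -0.038 and 0.26 log2 in sample 5. The MOE430A array of sample 5 was run on another fluidics station than those of samples 1 and 4, per the file headers. All MOE430B arrays shared 1 station, and Ccnd1 has no probe set there, so for Ccnd1 sample and station cannot be told apart.

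Ccnd2, which encodes cyclin D2, was read by 7 probe sets, of which 3 were detected. Probe set 1434745_at read 6184, 8119 and 5732 in samples 1, 4 and 5, and 1416122_at read 4430, 7629 and 6389. Both had sample 4 highest, by 1.36-fold and 1.43-fold over the mean of the other samples. Probe set 1455956_x_at, which can match several transcripts, read 2252, 2228 and 2130, the same in all samples within 1.06-fold. Probe set 1430127_a_at passed the limit in samples 4 and 5 only, and 1448229_s_at in samples 1 and 5 only, with 1603, 522 and 1423. The remaining pair, 1416123_at and 1416124_at, read at most 133 and 106, below the limit in every sample.

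Ccnd3 encodes cyclin D3, the member of the family best known from lymphocytes and from differentiated cells. On MOE430A its only probe set, 1415907_at, read 2174 in sample 5, against 4082 in sample 1 and 4055 in sample 4, 1.87-fold lower in sample 5. On MOE430B probe set 1444323_at read 2222 in sample 5, against 2570 in sample 1 and 3782 in sample 4, which is 1.40-fold lower. Sample 5 was lowest for Ccnd3 on both designs and highest for Ccnd1, although neither Ccnd3 value reached 2-fold. A second MOE430B probe set, 1438805_at, read 251 ± 75.8 (SD, n = 3), below the limit in every sample.

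Cdk4, the kinase partner of the D cyclins found in most dividing cells, was detected by all 3 of its probe sets. Probe set 1422439_a_at read 9102, 9508 and 9218 in samples 1, 4 and 5 (9276 ± 209, SD, n = 3) and the samples lay close together. Probe set 1422441_x_at read 9258, 11857 and 9439, a range of 1.28-fold. By contrast 1422440_at read 2150 in sample 1, against 5763 in sample 4 and 4383 in sample 5, which is 2.34-fold lower in sample 1. It was the 1 of 13 member probe sets on MOE430A at least 2-fold lower in sample 1, where 6.11% of all were, and with the limit at the 99th percentile the fold was 1.62. All 3 probe sets of Cdk4 had sample 1 lowest, but by sizes that differed widely. Sample 1 also had the highest 3' to 5' ratio, and the part of RNA quality in this result was not tested.

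Cdk6, the close relative of Cdk4, was detected on MOE430B only. Its probe set 1455287_at read 7916 in sample 5, against 5216 in sample 1 and 4045 in sample 4, 1.72-fold higher in sample 5. Probe set 1435338_at read 3924 in sample 5, against 2710 in sample 1 and 3076 in sample 4, 1.36-fold higher. Both, 2 of the 3 member probe sets above the limit on MOE430B, had sample 5 highest, where 36.3% of all had. These arrays shared 1 fluidics station. On MOE430A the only Cdk6 probe set, 1460291_at, read 29.9, 28.7 and 87.1 in samples 1, 4 and 5, so the gene would have been called not detected from that array alone.

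The promoters of Cdk4 and Cdk6 are shown because these kinases bind the same cyclins and their promoters can be compared. They are the 250 bases before the annotated start from RefSeq, build GRCm38.p6, of which 7 of the 10 members had an entry. Capitals mark the E-box CACGTG, a palindrome bound by Myc and related factors and searched on both strands. The Cdk4 window is chr10:127063285-127063534 on the plus strand and the Cdk6 window chr5:3343643-3343892 on the plus strand.
Cdk4: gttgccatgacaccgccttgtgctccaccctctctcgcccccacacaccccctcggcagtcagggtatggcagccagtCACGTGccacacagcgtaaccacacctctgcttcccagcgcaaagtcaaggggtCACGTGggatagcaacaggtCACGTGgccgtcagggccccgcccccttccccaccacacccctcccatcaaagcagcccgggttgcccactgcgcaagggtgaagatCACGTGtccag
Cdk6: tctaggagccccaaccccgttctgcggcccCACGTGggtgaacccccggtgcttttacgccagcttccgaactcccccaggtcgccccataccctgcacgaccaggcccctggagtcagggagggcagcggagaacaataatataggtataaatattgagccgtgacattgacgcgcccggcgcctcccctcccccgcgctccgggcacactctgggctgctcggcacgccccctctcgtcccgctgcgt
The Cdk4 window holds 4 copies of the word, starting 172, 118, 98 and 11 bases before the gene's start, and the Cdk6 window holds 1 copy, 220 bases before it. Of 32851 promoter windows of this length 6.02% hold at least 1 copy and 7 windows (0.0213%) hold 4 or more. A match is a description of the letters and not a bound site.

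Both inhibitors among the members were lowest in sample 5, and differed in which sample was highest. Cdkn1b, which encodes p27, was detected by 1 of its 2 probe sets. Probe set 1434045_at read 3306 in sample 1, against 1924 in sample 4 and 1460 in sample 5 (2230 ± 961, SD, n = 3), 1.97-fold higher in sample 1 and 1.73-fold lower in sample 5. On this probe set sample 1 was highest and sample 5 lowest. The other Cdkn1b probe set, 1419497_at, read 603, 505 and 330 in samples 1, 4 and 5, below the limit throughout. Cdkn2c, which encodes the Cdk4 and Cdk6 inhibitor p18, read 9636 in sample 4, against 5846 in sample 1 and 4751 in sample 5 on its only probe set (6744 ± 2563, SD, n = 3). It was 1.83-fold higher in sample 4 and 1.58-fold lower in sample 5.

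None of the 8 probe sets of the pocket protein genes was above the limit on 3 of 3 arrays, and 3 of them passed it in a single sample. Rb1 encodes the retinoblastoma protein itself, the founding tumour suppressor of the family. Its probe set 1417850_at read 1404 in sample 5, above the limit, and 762 in sample 1 and 685 in sample 4, below it. The MOE430B probe set of Rb1 read 40.2 ± 11.6 (SD, n = 3). Rbl2, which encodes p130, the pocket protein of resting cells, read 709, 326 and 598 in samples 1, 4 and 5 on 1425981_a_at and 18.4 ± 0.302 (SD, n = 3) on 1418146_a_at. A gene below the limit was not shown to be absent: Cdk6 and Ccnd2 each had probe sets above the limit in every sample and others below it in every sample.

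Rbl1 encodes p107, the pocket protein that is made as cells enter the cycle and whose own promoter is a known E2F target. Its probe set 1424156_at read 1920 in sample 5, above the limit, and 603 in sample 1 and 1081 in sample 4, below it. On 1425166_at it read 223 in sample 5, against 35.5 in sample 1 and 97.7 in sample 4, all below the limit. Signals below the limit give no order of the samples. On MOE430B 1454293_at was above the limit in sample 4 alone, with 2755, against 1312 in sample 1 and 1540 in sample 5. The other, 1432604_at, read 1101, 1246 and 311 in samples 1, 4 and 5.

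The promoter of Rbl1 is shown because its gene is a known E2F target. The window is chr2:157204535-157204784 on the minus strand of GRCm38.p6, the 250 bases before the RefSeq start, and capitals mark the match.
Rbl1: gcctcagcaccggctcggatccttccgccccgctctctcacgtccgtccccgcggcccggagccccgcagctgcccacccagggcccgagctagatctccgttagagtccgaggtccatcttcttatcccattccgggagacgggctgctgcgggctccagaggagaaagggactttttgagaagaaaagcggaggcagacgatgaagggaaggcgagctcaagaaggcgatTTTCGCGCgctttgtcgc
The words searched, on both strands, were TTTGGCGC, TTTCGCGC, TTTCCCGC and TTTGCCGC. Rbl1 held 1, in the sense direction of the gene, starting 18 bases before the start, and no other window of the 7 members with an entry did. Of all 32851 windows 1.86% held at least 1. The word TTTGAA, known as the CHR element of genes bound by p130 and p107 complexes, was found in the Rbl2 window and in 16% of all windows, and CCAAT in the Cdkn1b window, in 1 of the 2 windows of Ccnd3 and in 33.8% of all windows.

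**Figure D2:**
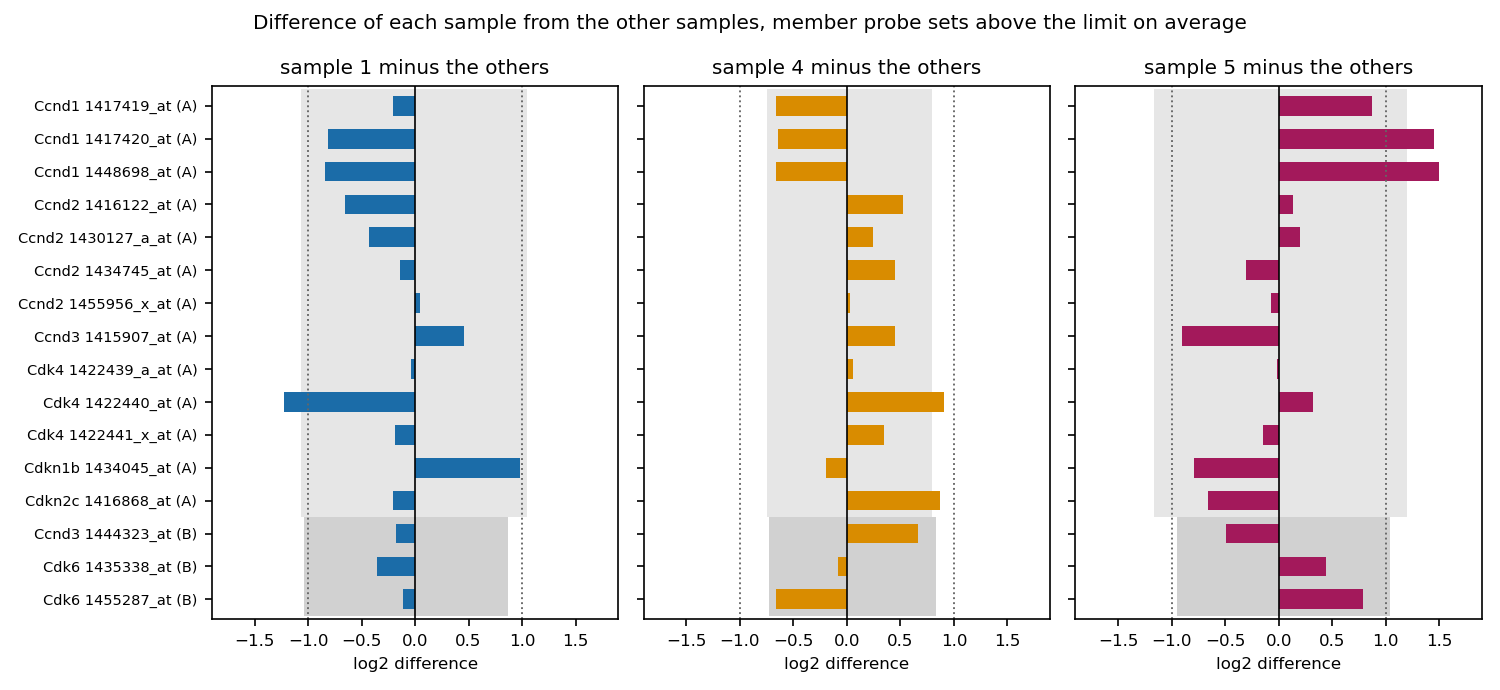
Log2 difference of samples 1, 4 and 5 from the mean of the other samples for the 16 member probe sets whose mean signal lay above the limit, with MOE430A above MOE430B. Grey bands hold the central 90% of all such probe sets of the design and dotted lines mark 2-fold. The bars of Ccnd1 1417420_at and 1448698_at in sample 5 and of Cdk4 1422440_at in sample 1 pass 2-fold, at 1.45, 1.501 and -1.23.

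Over the 13 probe sets on MOE430A the members' median log2 deviation was -0.20 in sample 1, 0.24 in sample 4 and -0.01 in sample 5, against -0.02, 0.01 and -0.02 over all probe sets above the limit. Ccnd1 counts 3 times in these medians. Read by 1 probe set per gene, as the lists further on are, the 6 member genes had medians of -0.17 in sample 1, 0.39 in sample 4 and -0.48 in sample 5, against 0.0094, 0.015 and -0.055 over all genes. Ccnd1 was then the only 1 of the 6 higher in sample 5, where 2080 of all 4475 genes were. Ccnd2, Ccnd3, Cdk4, Cdkn1b and Cdkn2c were lower, where 2395 of all 4475 genes were. The median range over the samples was 0.91 log2 for the 13 member probe sets and 0.68 for all. On MOE430B the 3 member probe sets had medians of -0.17, -0.08 and 0.44. Over probe sets, the sign of the median changed under some settings in sample 5 on MOE430A and in sample 4 on MOE430B, as given in the closing section.

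Replication and mitosis genes read lower in sample 1 on MOE430A. The lists that follow were chosen with earlier results of these data known and are described by counts only. Of 17 measured replication genes regulated by E2F, 9 were detected, and 10 had a mean above the limit on MOE430A. All 10 were lower in sample 1, 9 of them at least 2-fold where 5.50% of all genes were, with a median 2.50-fold lower. Pcna, the sliding clamp of DNA polymerase, read 3033 in sample 1, against 9244 in sample 4 and 16979 in sample 5. Rrm2, the regulated subunit of ribonucleotide reductase, read 3826, 13520 and 18499 in samples 1, 4 and 5, and Cdt1, which loads the replicative helicase, 2053, 5273 and 13724. All were lowest in sample 1 and highest in sample 5. The helicase subunit genes followed the same order, Mcm2 with 1407, 2876 and 3106 on MOE430A and Mcm5 with 6466, 40837 and 58492 on MOE430B. Sample 5 was at least 2-fold higher in 5 of the 10, where 6.84% of all genes were.

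Mitosis genes instead had sample 4 highest. Of 8 measured, 2 were detected and 7 had a mean above the limit on MOE430A, all 7 lower in sample 1 and higher in sample 4, where 2214 and 2312 of all 4475 genes were. The median was 2.71-fold lower in sample 1, with 6 of the 7 at least 2-fold lower against 5.50% of all genes, and 2.53-fold higher in sample 4, where 6 of the 7 were at least 2-fold higher against 2.44% of all genes. Ccnb2, a mitotic cyclin gene, read 567 in sample 1, against 4695 in sample 4 and 2200 in sample 5, and the mitotic kinase gene Plk1 490, 4873 and 2228. Top2a, the topoisomerase of dividing cells, read 1748, 7948 and 5639. Sample 1 values of Ccnb2 and Plk1 were below the limit, so their folds are lower bounds. The 3' to 5' ratio was also highest in sample 1, and its part in the low values was not tested.

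Between the D cyclins and replication stand the cyclin E and A genes with their kinase. Of 10 measured, 4 were detected. The 6 with a mean above the limit on MOE430A were all lower in sample 1, none at least 2-fold, with a median 1.51-fold lower. Ccna2, the cyclin of S phase, read 2361, 4199 and 3104 in samples 1, 4 and 5. Cks1b, which helps target p27 for destruction, read 33394 in sample 5, against 16374 in sample 1 and 17810 in sample 4, 1.96-fold higher in sample 5. Skp2, the ubiquitin ligase subunit that recognises p27, read 2087 in sample 5 and 1699 in sample 4, against 1041 in sample 1, below the limit. None of its 6 probe sets on MOE430A was detected. Cyclin E1 gene Ccne1 was above the limit in samples 4 and 5 on MOE430B, with 3104 and 9105, against 1492 in sample 1, and was below it on MOE430A. Cdk7, the kinase that activates other cyclin-dependent kinases, was instead highest in sample 1 on MOE430B, with 7016 in sample 1, against 3122 in sample 4 and 3767 in sample 5. It was 2.05-fold higher in sample 1 there, while on MOE430A it read 1254 in sample 1, below the limit, 1574 in sample 4 and 2762 in sample 5. Cdk2 was not detected.

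Of the E2F factors and their DP partners 6 of 10 were detected. E2f1, an activating member, read 3471, 3931 and 2834 in samples 1, 4 and 5 and was lowest in sample 5. E2f3, also an activator, read 10854 in sample 5, against 6416 in sample 1 and 3269 in sample 4 on MOE430B. The DP subunit gene Tfdp1 read 4094 in sample 5, against 1755 in sample 1 and 2048 in sample 4, 2.16-fold higher in sample 5. The repressor E2f8 read 4215 in sample 5 and was below the limit in samples 1 and 4, and its relative E2f7 read 2086, 4304 and 4770 in samples 1, 4 and 5 on MOE430B. E2f4, the usual partner of p107 and p130, was above the limit in sample 1 alone, with 1442, against 966 in sample 4 and 563 in sample 5.

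In the remaining 4 lists no gene with a mean above the limit on MOE430A differed 2-fold in any sample. MuvB subunits join p107 and p130 in repressor complexes, and their list also held the other MuvB partners Mybl2 and Foxm1. Of its 7 genes 3 were detected, Lin52, Rbbp4 and Foxm1, and Lin9, Lin54 and Mybl2 were not. Of 5 measured pocket protein cofactors 3 were detected, the deacetylase gene Hdac1 (9358, 8780 and 6331 in samples 1, 4 and 5), Smarca4 and Sin3b, the last lower in sample 5 on MOE430B (2998, against 8180 in sample 1 and 6351 in sample 4), and Arid4a and Kdm5a were not. Of 7 genes of cyclin D turnover 4 were detected. They were Gsk3b, a kinase that marks cyclin D1 for export and destruction (20788, 25031 and 22714 on MOE430B), Fbxo31, Fbxw8 and Cul1, while Ambra1 was not. Of 5 other inhibitors Cdkn1a and Cdkn2b were detected, and Cdkn2a and Cdkn1c were not. The 2 ran in opposite orders. Cdkn1a read 10624, 13368 and 14958 in samples 1, 4 and 5, highest in sample 5. Cdkn2b, the gene of the Cdk4 and Cdk6 inhibitor p15, read 5534, 4706 and 4232, lowest in sample 5.

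**Figure D3:**
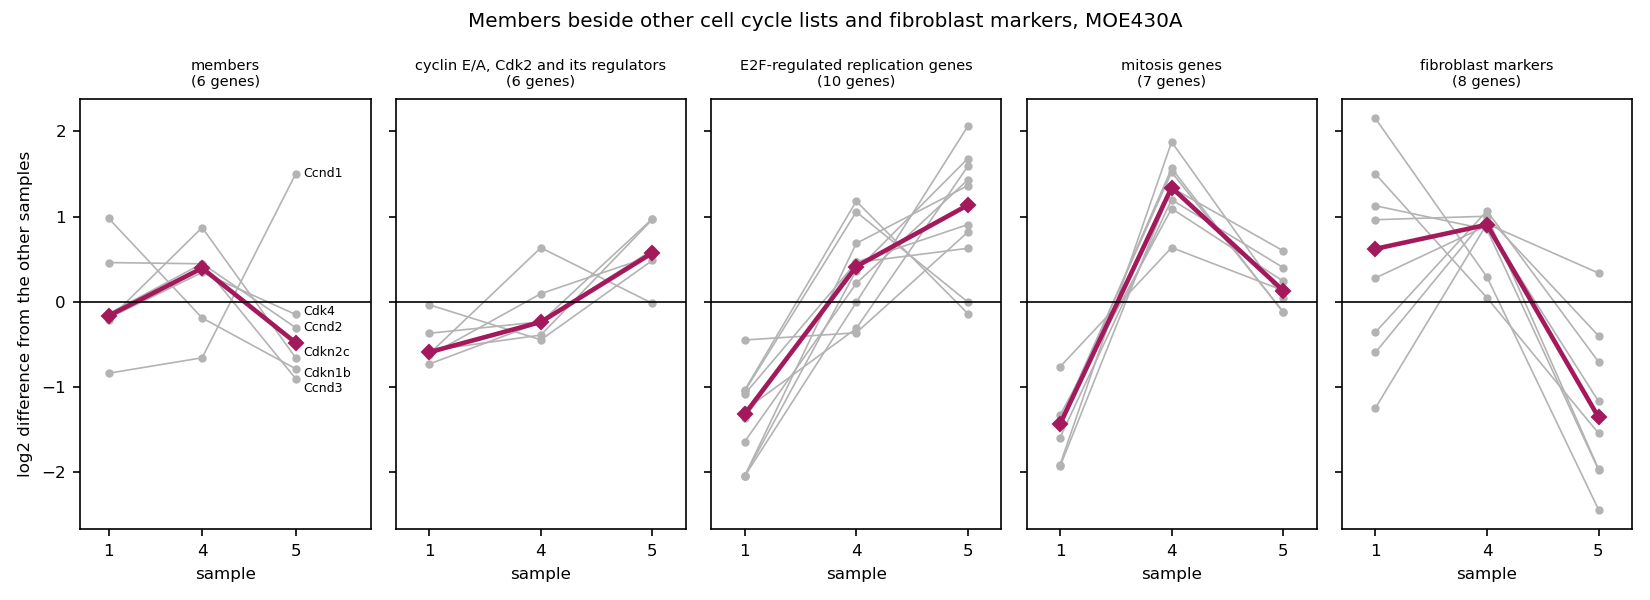
Log2 difference of each sample from the mean of the other samples on MOE430A, for the members and 4 other lists. Each grey line joins the values of 1 gene in samples 1, 4 and 5, and the thick line joins the list's medians. Replication and mitosis genes lie below 0 in sample 1 (medians -1.32 and -1.44), and the fibroblast markers below 0 in sample 5 (median -1.36). In sample 5, 5 of the 6 members lie below 0 (median over the 6 of -0.48), with Ccnd1 above it at 1.501. Of all 4475 genes 2395 lie below 0 in sample 5.

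Fibroblast markers were lower in sample 5, the sample with the highest Ccnd1. Of 8 with a mean above the limit on MOE430A, 5 were at least 2-fold lower in sample 5, where 6.44% of all genes were, with a median 2.57-fold lower. Pdgfrb, the receptor for a growth factor of fibroblasts, read 1575 in sample 5, against 6100 in sample 1 and 6217 in sample 4. Vim did not follow, with 76354 in sample 5, against 36684 in sample 1 and 99725 in sample 4. Whether these shifts bear on Ccnd1 was not tested.

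The 3 genes whose values over the 3 samples lay nearest to those of Ccnd1 probe set 1448698_at were Nop56, Ebna1bp2 and Eed, with distances of 0.02, 0.03 and 0.05 in centred log2 units. Nop56, a core protein of small nucleolar ribonucleoproteins, read 3541 in sample 5, against 964 in sample 1 and 1336 in sample 4. The ribosome assembly gene Ebna1bp2 read 3489 in sample 5, against 1077 in sample 1 and 1315 in sample 4, and the Polycomb subunit gene Eed 3466, 1178 and 1258. All 3 were above the limit of the array in sample 5 alone. Their sample 1 values were raised to the mean limit for the comparison, and those of sample 4 were below that array's own limit, so the distances and their order rest on values not above background. With 3 points the pattern is not rare, and 275 of 4469 genes lay within a distance of 0.5.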

How the data were processed

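Total RNA of 3 samples of 1 group was labelled with biotin and hybridised to 1 MOE430A and 1 MOE430B array each, per the labels. For every probe set and array the authors deposited a MAS5 intensity (named in the submitters' processing notes, version and settings not given in the sources used here), on a linear scale. The mean of each array after trimming both ends was 1500 to 1501. Run settings were read from the other deposited text and score entries, per the file headers. 0 sample columns were left unused.

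The designs were kept apart. Genes came from the platform annotation through RefSeq symbols (GRCm38.p6), from probe sets naming 1 gene. Detection used each array's limit, from 101 measured genes of a background list of 109, of which 4 were themselves detected and 1, Cd3e, is also a leukocyte marker. For folds, signals below the design's mean limit (1215 on MOE430A, 1961 on MOE430B) were raised to it. A list was read by 1 probe set per gene, the brightest above the limit. Members and lists were chosen with earlier results of these data known. All probe sets of the members are given, the first 3 genes of each other list and up to 3 more of large range were the ones to name, and for Ccnd1 the 3 genes nearest by Euclidean distance. The number of arrays limits the precision. The calculation was tested on simulated data (Python 3.11.15, numpy 2.4.6, pandas 2.3.3). Alternatives were the limit's percentile, quantile normalisation, a pseudocount of 16, the filter, probe sets of several transcripts and each sample left out.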

Additional observations from a re-analysis of the deposited data

How the results depend on the processing

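The numbers of detected member genes and probe sets stayed within 1.5 times of their values under the alternatives tried, except that at the 99th percentile limit 7 probe sets of MOE430A and 1 of MOE430B were detected. The median deviation of the members was small and moved with the choices made. Without the filter it was -0.041 in sample 1 and 0.00 in sample 4 on MOE430A, and 0.00 in sample 5 on MOE430B. At the 90th percentile limit it was 0.039 in sample 4 and 0.17 in sample 5 on MOE430A, and 0.29 in sample 4 and 0.047 in sample 5 on MOE430B. With the _s_at and _x_at probe sets left out it was 0.14 in sample 5 on MOE430A. With a sample left out it ran from -0.12 to -0.028 in sample 1 and from -0.26 to 0.028 in sample 5 on MOE430A. On MOE430B it then ran from -0.53 to -0.18 in sample 1 and from -0.35 to 0.18 in sample 4. These medians rest on 13 and 3 probe sets, and the cause of the shifts was not tested. Both 2-fold differences of Ccnd1 in sample 5 lay between 2.64- and 2.95-fold under the alternatives run, each array's own limit as the floor among them, which was chosen after seeing the data. The difference of Cdk4 1422440_at in sample 1 lay between 1.62-fold at the 99th percentile limit and 2.68-fold without sample 5. No paired analysis was possible because the study has 1 group and no result comes from a test. Signals near the limit have no reliable order, and the limit on MOE430B rests on 15 probe sets.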
